A study of Mus musculus with 8 samples.

Results

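The zinc finger genes Zfp700 to Zfp999 were described across control and Mettl3-knockout mouse embryonic fibroblasts. The members are the protein-coding genes of the deposited count table whose mouse symbol runs from Zfp700 to Zfp999. This gave 128 genes of 39017 identifiers in the table and of 21303 protein-coding ones. The choice used names alone and no measured value. A low-count filter was passed by 101 members. The other 27 had at most 20 counts, or 0.18 CPM, in any library (CPM is the count scaled to a library of 1000000), and 6 of them had 0 counts in all 8 libraries.

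The 8 libraries form 4 groups of 2 biological replicates, all poly(A) RNA of fibroblasts taken from E13.5 embryos. Control total RNA and knockout total RNA came from unstressed cells. Control granule and knockout granule RNA was enriched for stress granules by centrifugation, after 30 min of sodium arsenite at 500 µM. In the knockout, Cre recombinase was switched on with 500 nM 4-hydroxytamoxifen for 48 h, loss of METTL3 protein and of the RNA mark N6-methyladenosine (m6A) was examined after 7 days, and cells were taken the day after. The labels do not name the Cre driver, nor whether control cells received the drug. Fraction and stress changed together, so their parts in a granule to total ratio cannot be told apart. P-values measure only the spread between these samples.

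C2H2 zinc finger proteins are DNA-binding proteins in which each finger, a short repeat folded around a zinc ion, contacts a few bases. Many carry a Krüppel-associated box (KRAB), which recruits the corepressor TRIM28 and through it enzymes that methylate histones and DNA, and many of those silence retrotransposons. Many of the genes sit in clusters, some of them as near-identical copies. The fingers of one protein are typically encoded together in its last coding exon. METTL3 is the catalytic subunit of the enzyme that writes m6A. Stress granules are cytoplasmic assemblies of untranslated mRNA and protein that form when translation initiation is blocked, as it is by arsenite.

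The members share a layout that the choice by name did not use. Coding exon lengths come from the longest coding sequence and transcript length and GC content from the longest transcript of each gene in GENCODE M21 (GRCm38 build). The last coding exon had a median of 1313 nt, against 176 nt over protein-coding genes, and held a median of 86.61% of the coding sequence, against 16.41%. It reached 1000 nt in 97 members (75.78%), against 8.51% of protein-coding genes. The median count of C2H2 fingers found by pattern was 11, with a highest count of 23 and at least 1 finger in 120 members. A KRAB-like amino acid pattern was found in 72 members (56.25%), against 0.8401% of protein-coding genes. A KRAB box whose letters depart from this short pattern is missed, so members without the pattern may still carry one. Whole transcripts were not long, with a median of 2952 nt against 2717 nt. Their median GC content was 40.25%, against 49.14%, and 92 members lay under 45%.

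Coding stretches of 4 members are shown because GC content and the finger repeat recur in the results. Each runs over 168 bases, a pair of adjacent finger repeats in the last coding exon, from the first cysteine codon of a finger. Capitals mark matches to 14 letters that encode the conserved linker between fingers, spelled ACTGG, any base, GA, any base and AAACC. This motif was searched on the sense strand of the coding sequence. It occurs in 57 members (44.53%), against 0.9722% of protein-coding genes. Zfp948 and Zfp934 had the highest granule to total ratios of control cells, Zfp808 has the most matches of any member (15 in its whole coding sequence), and Zfp771 is the member of highest GC content. The stretches of Zfp948 (chr17:21587193-21587360), Zfp934 (chr13:62518016-62518183) and Zfp808 (chr13:62171445-62171612) are from the plus, minus and plus strand, and that of Zfp771 (chr7:127253856-127254023) is from the plus strand.
Zfp948: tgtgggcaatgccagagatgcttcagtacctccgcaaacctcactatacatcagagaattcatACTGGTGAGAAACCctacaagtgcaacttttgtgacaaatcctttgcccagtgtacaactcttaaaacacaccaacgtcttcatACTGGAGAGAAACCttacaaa
Zfp934: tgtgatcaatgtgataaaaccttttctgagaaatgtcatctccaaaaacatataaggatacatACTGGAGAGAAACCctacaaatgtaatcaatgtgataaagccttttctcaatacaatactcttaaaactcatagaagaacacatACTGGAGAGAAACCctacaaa
Zfp808: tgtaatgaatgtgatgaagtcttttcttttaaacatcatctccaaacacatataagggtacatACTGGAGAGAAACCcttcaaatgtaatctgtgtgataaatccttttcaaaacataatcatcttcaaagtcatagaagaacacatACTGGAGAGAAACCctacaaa
Zfp771: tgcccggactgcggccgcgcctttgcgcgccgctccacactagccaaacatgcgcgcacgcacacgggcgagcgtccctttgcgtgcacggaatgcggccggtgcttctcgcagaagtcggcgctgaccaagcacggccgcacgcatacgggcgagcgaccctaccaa
The GC content of these stretches is 42.9%, 32.7%, 32.7% and 69.0% in the same order. The first 3 stretches hold 2 linker matches each, and the Zfp771 stretch holds none. GGACT, the most favoured letters of the m6A consensus, occur 1 time in the Zfp771 stretch and not in the other 3. Over all member coding sequences GGACT occurred 0.8146 times per kb, against 1.166 per kb in protein-coding genes, and GAACT 1.149 times per kb, against 1.164. A match to these letters is not a measured m6A site, and m6A itself is not analysed here.

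Near-identical copies limit how far single members can be told apart. Counting of reads with several matches is not stated in the sources used here. Of the 128 members, 26 share no 50-base stretch of their transcripts with another gene, 80 share under 10% and 23 share at least 50%. Among the 27 members that failed the filter, 13 share at least 50%. Whether their low counts come from the counting was not tested. Exons of another gene cover at least 10% of the exonic bases of 9 members. Zfp935 is covered whole by the gene model Gm49359, and 96.4% of Zfp708 is covered by Gm28557, so both are uncertain.

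Clusters were formed by joining members less than 1000000 bases apart. The largest hold 16 members on chromosome 4 (7 tested), 13 on chromosome 17 (all tested) and 11 on chromosome 2 (5 tested). In 31 cases a member stood alone. Chromosome 7 holds the most members, 24, followed by chromosome 17 with 21.

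Library totals ran from 67257220 to 123508539 counts, at which 3 counts in the smallest library equal 0.0446 CPM. Mettl3 stood at 25.4 and 24.9 CPM in control total, 15.7 and 15.4 in control granule, 6.004 and 7.35 in knockout total and 5.56 and 6.38 in knockout granule libraries. Every knockout library was below every control library. Of 12 fibroblast markers 11 reached 1 CPM, and their summed level was 6194 to 9508 CPM in every library. Of 5 pluripotent or germ cell markers 0 reached 1 CPM, with a highest sum of 0.4314 CPM. Summed markers of other lineages also differed between groups. The 6 epithelial markers, all above 1 CPM in some library, summed to 358.5 to 453.1 CPM in control total, 735.4 to 885.2 in control granule, 152.9 to 183.6 in knockout total and 590.6 to 786.5 in knockout granule libraries. The 5 neural markers, of which 3 reached 1 CPM and Sox2 had at most 3 counts, summed to 304.7 to 327.9, 607.3 to 682.1, 202.3 to 271.9 and 367.9 to 388.4 CPM in the same order. The 5 haematopoietic markers, all reaching 1 CPM, summed to 51.33 to 58.57, 26.65 to 31.47, 35.41 to 43.03 and 39.21 to 44.26 CPM. The 4 endothelial markers, of which 2 reached 1 CPM, summed to 13.25 to 14.8, 6.239 to 8.211, 14.91 to 20.13 and 10.8 to 14.39 CPM. The markers of a list did not all share a direction. With edgeR's quasi-likelihood test over all genes, Nes was higher (log2 ratio 1.18, adjusted p = 0.034) and Tubb3, also neural, was lower (-3.00, adjusted p = 0.0098) in the control granule fraction. Haematopoietic Ptprc and endothelial Kdr were lower there too (adjusted p = 0.039 and 0.049). In knockout cells the epithelial Krt18 and Krt8 were higher in the granule fraction (log2 ratios 3.13 and 3.65, adjusted p = 0.0042 and 0.0043). No other marker of these 4 lists had an adjusted p under 0.05 in any of the 5 comparisons. Of the 12 fibroblast markers, Col3a1 and Thy1 were lower by that threshold in the control granule fraction (4.17% of all genes). In knockout cells 4 were higher in the granule fraction (S100a4, Col1a1, Pdgfrb and Col3a1, 9.17%) and Fn1 was lower (8.47%). Between genotypes in the granule fraction 3 were higher in knockout (Col1a1, Col3a1 and Pdgfrb, 5.79%) and Vim was lower (3.66%). Cdh1 and Epcam had at most 2.16 CPM. The part of all these markers in the members' ratios was not tested. Knockout total replicate 1 stood apart from its replicate: 45 of the 101 tested members (44.6%) differed more than 2-fold between the pair, against 4 in control total, 0 in control granule and 1 in knockout granule. Across all tested genes the share was 33.1%. Results are therefore given with and without that library. Without it knockout total RNA has 1 library, which gives no spread. Comparisons with that group are then given as effect sizes only.

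Most members were scarce mRNAs. The mean over the 8 libraries was under 1 CPM in 47 members, 1 to under 10 CPM in 59 and at least 10 CPM in 22. Scaled to transcript length, the tested members had a median level of 1.04 CPM per kb, against 5.40 CPM per kb over 15370 tested protein-coding genes. By mean level per length the highest were Zfp706 (49.1 CPM per kb), Zfp740 (37.2), Zfp703 (35.8), Zfp771 (24.6) and Zfp746 (16.8). Of these 5, Zfp771 alone is a member with 8 or more fingers. None matched the KRAB-like pattern, which does not show that they lack a KRAB box. In bulk RNA, fewer cells with a transcript and less of it per cell cannot be told apart.

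The median member differed in level between libraries, the replicates of a group included. Relative to each gene's own mean, on the scale log2(CPM + 0.1), the median member stood at -0.79 and -0.37 in control total replicates 1 and 2, and at 0.31 and 0.18 in control granule. It stood at 0.53 and -0.15 in the knockout total replicates and at 0.15 and 0.10 in knockout granule. Control total replicate 1 was the lowest library for 60 members and knockout total replicate 1 the highest for 49. The median of knockout total replicate 1 thus lay above, and that of replicate 2 below, the medians of all 4 granule libraries. Over all tested genes the medians of the 8 libraries lay between -0.03 and 0.05.

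**Figure D1:**
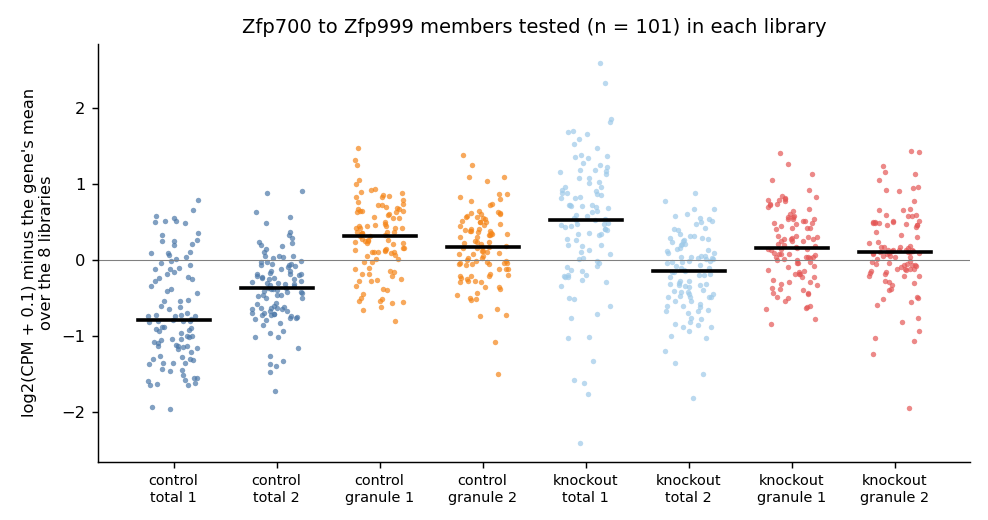
Level of each of the 101 tested members in each library, as log2(CPM + 0.1) minus the gene's mean over the 8 libraries. Points are members and bars are medians, which run from -0.79 in control total replicate 1 to 0.53 in knockout total replicate 1.

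Which members were over-represented in the granule fraction was compared first in control cells. A gene is said to be called where edgeR's quasi-likelihood test gave a Benjamini-Hochberg adjusted p under 0.05 over 18952 tested genes. In the granule fraction 18 of the 101 tested members were called higher, where 5.89% of all genes were, and 0 were called lower, where 4.17% were. The median member log2 ratio was 0.85 (SD of the median over the 4 library pairings 0.22), against -0.06 over all genes. Unadjusted p was under 0.05 for 44 members (30% of all genes). Both granule libraries exceeded both total libraries in 66 members (35.2% of all genes did), and both lay below in 15 (37.3%). None of these calls remained when any 1 of the 4 control libraries was left out, and few members were called without either knockout granule library. The share of all genes called in those fits is not given here. With 1 library left out the member median ran from 0.598 to 1.12. Without knockout total replicate 1, which is not compared here but sets the shared spread, 54 of 102 tested members were called higher (21.5% of all genes) and 8 lower (19.1%), among them all 18.

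The member with the highest ratio was Zfp948 (ENSMUSG00000067931, chromosome 17, 21567008 to 21588699), a KRAB-like gene with 15 fingers and 4 linker matches. It was at 3.81 and 5.41 CPM in control total and 42.6 and 40.0 in control granule libraries. Its knockout values were 13.0 and 5.32 CPM in total and 33.5 and 34.2 in granule libraries. The granule libraries of both genotypes lay above all 4 total libraries. The log2 ratio in control cells was 3.16 (SE 0.45, adjusted p = 0.011), and 2.94 to 3.48 with 1 library left out. Only 0.115% of its 50-base stretches occur in another gene.

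Zfp934 (ENSMUSG00000074865, chromosome 13, 62479827 to 62571199) has 11 fingers, no KRAB-like pattern and 9 linker matches. It was at 0.206 and 0.270 CPM in control total and 2.21 and 1.87 in control granule libraries. In knockout cells it was at 1.60 and 0.426 CPM in total and 1.16 and 0.834 in granule libraries, so those groups overlapped. The control log2 ratio was 3.09 (SE 0.63, adjusted p = 0.027). It shares 45.6% of its 50-base stretches with other genes, first with Zfp808, whose control log2 ratio was 2.48 (SE 0.54, adjusted p = 0.032).

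Zfp947 (ENSMUSG00000063383, chromosome 17, 22144359 to 22166190), a KRAB-like gene with 9 fingers, was at 0.0882 and 0.129 CPM in control total and 0.951 and 0.764 in control granule libraries. The knockout total values were 0.351 and 0.239 CPM and the knockout granule values 1.23 and 0.966. All granule values exceeded all total values. The control log2 ratio was 2.95 (SE 0.45, adjusted p = 0.012). It shares 20.1% of its 50-base stretches with other genes, first with its neighbour Zfp995, whose control log2 ratio was 1.96 (SE 0.41, adjusted p = 0.028). Over all 18 called members the log2 ratio ran from 1.29 (Zfp949) to 3.16, and none of the 18 had overlapping groups.

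Members with known roles mostly missed the threshold in control cells. Zfp746, which encodes PARIS, a parkin substrate that represses the mitochondrial regulator PGC-1alpha, was at 70.1 and 63.3 CPM in total and 31.6 and 29.5 in granule libraries. Both granule values lay below both total values, with a log2 ratio of -1.12 (SE 0.42, adjusted p = 0.12). With knockout total replicate 1 left out it was called lower at -1.12 (SE 0.17, adjusted p = 1.7e-04). Zfp932, which represses endogenous retroviruses, was at 0.853 and 1.41 CPM in total and 3.03 and 2.88 in granule libraries, with a log2 ratio of 1.38 (SE 0.39, adjusted p = 0.061). Zfp800, reported to act in pancreas development, was at 3.16 and 6.33 CPM in total and 15.98 and 15.4 in granule libraries, with a log2 ratio of 1.72 (SE 0.63, adjusted p = 0.11). When that library was left out, Zfp932 and Zfp800 were called higher too.

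The remaining genes with a known role had smaller ratios. Zfp809 encodes the KRAB protein that binds the primer binding site of murine leukaemia virus and recruits TRIM28. It was at 3.49 and 4.51 CPM in control total and 6.42 and 5.58 in control granule libraries, a log2 ratio of 0.59 (SE 0.39, adjusted p = 0.35). Zfp827, which brings the NuRD complex to telomeres, was at 35.3 and 38.9 CPM in total and 63.0 and 54.7 in granule libraries, a log2 ratio of 0.67 (SE 0.33, adjusted p = 0.22). Zfp768, linked to cell proliferation, was at 37.3 and 29.2 CPM in total and 21.5 and 21.9 in granule libraries, a log2 ratio of -0.62 (SE 0.33, adjusted p = 0.25). The granule and total groups of all 3 were separate, and none of the 3 passed the test.

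Zfp703, a transcriptional repressor of the NET family, was at 134 and 115 CPM in control total and 118 and 116 in control granule libraries. Zfp706, a small protein reported to act when embryonic stem cells leave self-renewal, was at 177 and 221 CPM in total and 215 and 232 in granule libraries. For both, the fractions overlapped, with log2 ratios of -0.09 (SE 0.24) and 0.17 (SE 0.26). Zfp740 was at 155 and 164 CPM in total and 197 and 171 in granule libraries, and Zfp771 at 40.1 and 26.5 in total and 33.4 and 39.5 in granule libraries. Their log2 ratios were 0.20 (SE 0.40) and 0.13 (SE 0.70), neither called.

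Members known from other cell types were scarce. Zfp750, a regulator of epidermal differentiation, had 0.379 to 1.33 CPM in the 8 libraries. Zfp819, which acts in pluripotent and germ cells, had 0.00 to 0.448 CPM, with its highest 2 values in the knockout granule libraries. Zfp711, an X-linked gene whose human counterpart is tied to intellectual disability, had at most 8 counts and was not tested. Zfp708, reported to bind a retrotransposon, had 0.324 and 0.507 CPM in control total and 0.883 and 1.01 in control granule libraries. Its log2 ratio was 1.18 (SE 0.66, adjusted p = 0.27).

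**Figure D2:**
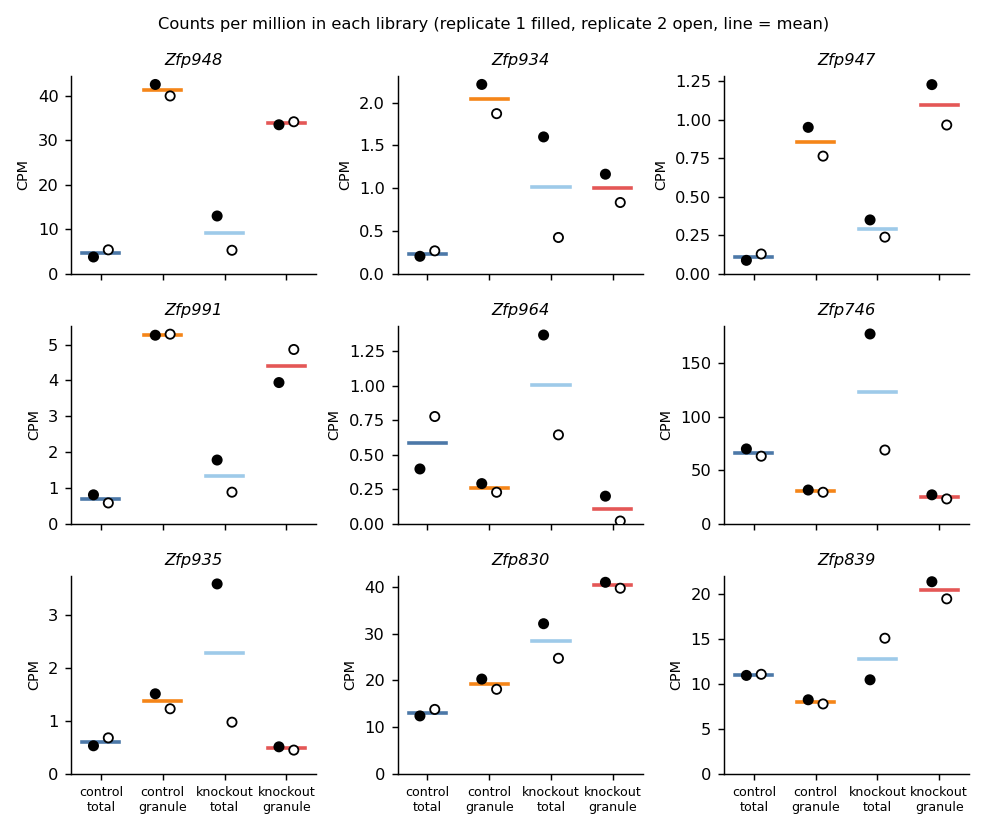
CPM of 9 members in each library, with replicate 1 filled, replicate 2 open and the group mean as a line, on linear axes that start at 0. Zfp948, Zfp947 and Zfp991 were higher in every granule library than in any total library, and knockout total replicate 1 was the highest library for Zfp964, Zfp746 and Zfp935.

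Within the members, the control ratio went with base composition. The Spearman correlation between the log2 ratio and GC content was -0.644 over the 101 members, which share libraries and, in part, sequence, and -0.421 over 15370 protein-coding genes. The median log2 ratio was 1.29 in the 68 tested members under 45% GC (16 called higher) and 0.01 in the 33 at or above it (2 called higher). With the GC trend of each library removed, the member median was 0.31 against 0.05 over all genes. The members' Spearman correlation with GC content was then -0.203, so the relation was smaller but not gone. In that fit 18 members were called higher (13.7% of all genes) and 2 lower (7.64%), Zfp791 and Zfp974, and 14 of the 18 were among those called without the correction. Zfp948 then had a log2 ratio of 2.41 and Zfp934 one of 2.10.

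The other features were compared in the same way. The median control log2 ratio was 0.96 in the 55 tested members with the pattern and 0.41 in the 46 without. Under 45% GC it was 1.24 in 42 members with the pattern and 1.31 in 26 without. At or above 45% GC it was 0.30 in 13 members with the pattern and -0.28 in 20 without. Members with 8 or more fingers had a median of 1.05 (77 tested) and those with fewer 0.15 (24 tested). Members whose last coding exon reached 1000 nt had 1.15 (75 tested) and the rest 0.21 (26 tested). With the GC trend removed the medians were 0.41 and 0.15 by finger count and 0.35 and 0.23 by last coding exon. With and without the KRAB-like pattern they were then 0.31 and 0.31. Transcript length showed a weak relation over the members (Spearman correlation -0.151), where all protein-coding genes gave 0.253. The 31 tested members that share at least 10% of their 50-base stretches with other genes had a median of 1.34 (10 called higher), and the 70 others 0.58 (8 called higher). The Spearman correlation with the shared percentage was 0.36, and 0.14 with the GC trend removed. These classes overlap, and no difference between them was tested.

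**Figure D3:**
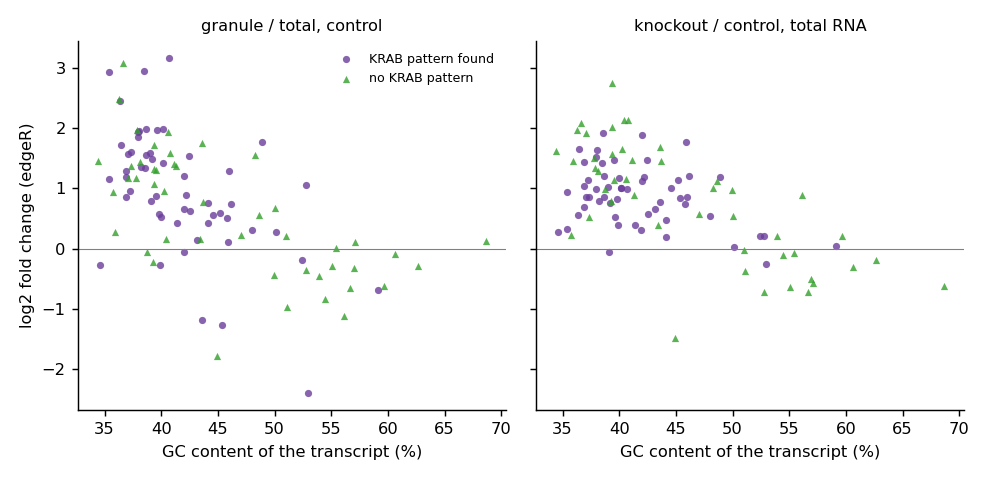
Log2 fold change of the 101 tested members against the GC content of the longest transcript, for granule against total in control cells and for knockout against control in total RNA. Circles are members with a KRAB-like pattern and triangles those without, and members of lower GC content lie higher in both panels (Spearman correlation -0.644 and -0.528). Over 15370 protein-coding genes the correlations were -0.421 and -0.549.

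The 13 members of the chromosome 17 cluster from 21567008 to 22867134 had one direction in control cells. All 13 had a positive log2 ratio, with a median of 1.57, and 7 of them were called higher, where 5.89% of all genes were. Their median GC content was 37.9%. With the GC trend removed 11 of the 13 were positive, with a median of 0.64 and 5 called higher (13.7% of all genes). The 6 tested members of the chromosome 7 cluster from 41633203 to 43618285 were also all positive, with a median of 1.51 and 1 called higher (5.89%). The 5 members of the chromosome 6 cluster from 47819266 to 48623227, which holds Zfp746, had a median GC content of 56.1%. All 5 were lower in both granule libraries (37.3% of all genes were), with a median log2 ratio of -0.83 and 0 called lower (4.17%). With the GC trend removed that median was -0.45. Neighbours in a cluster share sequence and base composition, and are not independent.

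Granule and total RNA were then compared in knockout cells. In the granule fraction 5 members were called higher (9.17% of all genes) and 5 lower (8.47%), and the median log2 ratio was -0.17 (SD of the median over library pairings 0.45), against 0.04 over all genes. The granule libraries lay above both total libraries in 28 members (31.5% of all genes) and below both in 28 (26.5%). All 5 called higher, Zfp947, Zfp948, Zfp991, Zfp995 and Zfp937, are among the 18 called in control cells, so that they make up 5 of 18 there. Those called lower were Zfp964, Zfp746, Zfp935, Zfp869 and Zfp866. With only the knockout groups fitted no member was called, and the share of all genes in that fit is not given here. With 1 library left out the median ran from -0.674 to 0.368.

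Zfp991 (ENSMUSG00000067916, chromosome 4, 147132038 to 147180579), a KRAB-like gene with 11 fingers, was at 1.78 and 0.883 CPM in knockout total and 3.94 and 4.86 in knockout granule libraries. Its control values were 0.809 and 0.582 CPM in total and 5.26 and 5.29 in granule libraries. Every granule value exceeded every total value. The knockout log2 ratio was 1.72 (SE 0.40, adjusted p = 0.025) and the control one 2.93 (SE 0.42, adjusted p = 0.011). Other genes, first a pseudogene, share 87.0% of its 50-base stretches. In the knockout, Zfp947 had a log2 ratio of 1.89 (SE 0.41, adjusted p = 0.020) and Zfp948 one of 1.88 (SE 0.43, adjusted p = 0.024).

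Zfp746 was at 178 and 69.0 CPM in knockout total and 27.1 and 23.3 in knockout granule libraries, so that replicate 1 alone gave the high total value. The log2 ratio was -2.29 (SE 0.43, adjusted p = 0.013), and -1.46 without knockout total replicate 1, which leaves 1 library in that group. Zfp964 (ENSMUSG00000091764, chromosome 8, 69654479 to 69666982) was at 1.37 and 0.644 CPM in knockout total and 0.200 and 0.0203 in knockout granule libraries, the last below the level of 3 counts. Its log2 ratio was -3.15 (SE 0.85, adjusted p = 0.040), and -2.51 without that library. Zfp935 was at 3.60 and 0.976 CPM in knockout total and 0.510 and 0.448 in knockout granule libraries. Its log2 ratio was -2.25 (SE 0.59, adjusted p = 0.037), and -1.03 without that library.

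The cluster of 6 members on chromosome 8 from 69209038 to 69791178 had negative knockout ratios throughout, with a median of -0.80. Of the 6, 3 were called lower (Zfp964, Zfp869 and Zfp866), where 8.47% of all genes were. In control cells 5 of the same 6 were positive, with a median of 0.76 and 0 called. Without knockout total replicate 1 the knockout median was -0.51, and 2 of the 6 were positive. The chromosome 17 cluster had a knockout median of 0.64 with 3 of 13 called higher (9.17% of all genes), and without that library a median of 1.02.

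Leaving out knockout total replicate 1 turned the sign of the member median in this comparison. The median became 0.37, against 0.09 over all genes. Without replicate 2 in its place the median was -0.67. Each of these fits has 1 knockout total library, so calls are not given. The 2 knockout total libraries thus gave opposite signs, and with 2 replicates the data do not decide between them.

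**Figure D4:**
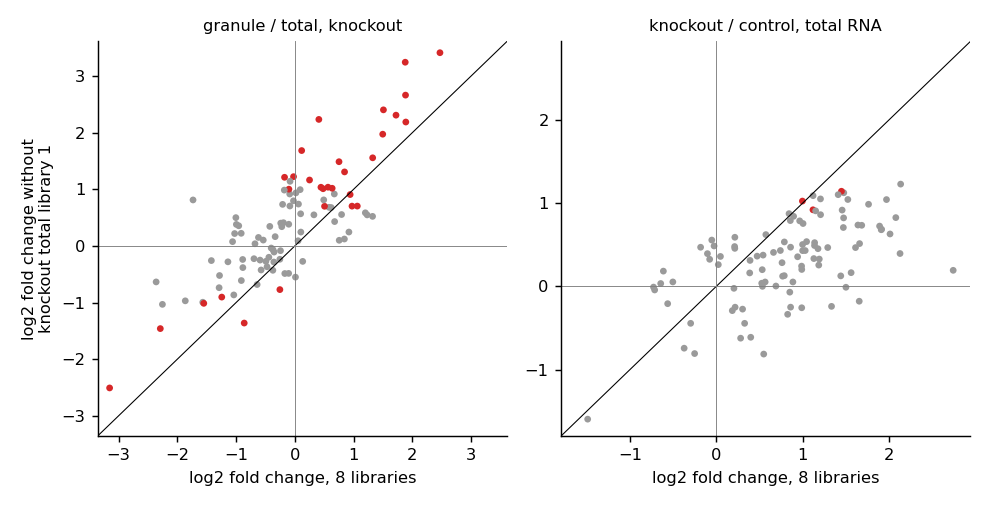
Log2 fold change of each tested member with all 8 libraries (horizontal) and without knockout total replicate 1 (vertical), for granule against total in knockout cells and knockout against control in total RNA. Red points were called in the fit without that library, which has 1 knockout total library and does not measure the spread of that group. In the left panel most points lie above the line of equal values, and in the right panel most lie below it.

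In total RNA, knockout was compared with control. 0 of the 101 tested members were called by edgeR, higher or lower, where 0.274% and 0.137% of all genes were. Unadjusted p was under 0.05 for 46 members (24.8% of all genes), and the DESeq2 Wald test called 27 higher (9.41% of all genes) and 0 lower (3.45%). The median log2 fold change was 0.89 (SD of the median over library pairings 0.51), against 0.02 over all genes. Both knockout libraries exceeded both controls in 52 members (24.4% of all genes) and lay below in 3 (24.7%). With knockout total replicate 1 left out the median was 0.38, with 3 members called higher (2.95% of all genes), Zfp704, Zfp830 and Zfp945, and 0 lower (2.56%). Without replicate 2 it was 1.34, with 64 called higher (27% of all genes) and 9 lower (20.9%).

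These values moved with GC content as well. The Spearman correlation with GC content was -0.528 over the members and -0.549 over 15370 protein-coding genes. Without knockout total replicate 1 it was -0.0412 over the members and -0.207 over 15838 protein-coding genes. The ratio between the 2 knockout total replicates itself had a Spearman correlation of -0.635 with GC content over the members. Over all tested genes it was -0.618. Replicate 1 was the higher in 82 of 101 members. With the GC trend removed the median was 0.33, with 3 members called higher (2.74% of all genes), Zfp768, Zfp830 and Zfp940, and 0 lower (1.44%). The part of GC content in the change was not tested beyond these fits.

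Zfp830 (ENSMUSG00000046010, chromosome 11, 82764345 to 82765935), a single-exon gene needed for survival of the early embryo, was among those called in total RNA with the GC trend removed. It was at 12.4 and 13.8 CPM in control total and 32.2 and 24.8 in knockout total libraries. In the granule fraction it was at 20.3 and 18.1 CPM in control and 41.1 and 39.8 in knockout. Knockout lay above control in both fractions and in every library. The log2 fold change in total RNA was 1.12 (SE 0.26, adjusted p = 0.11), and 0.92 without knockout total replicate 1.

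In the granule fraction, where replicates were closest, knockout was compared with control in the same way. Zfp839 and Zfp830 were called higher, 2 of 101 members, where 5.79% of all genes were, and 0 were called lower (3.66%). Zfp839 (ENSMUSG00000021271, chromosome 12, 110850253 to 110869996) was at 8.23 and 7.77 CPM in control granule and 21.4 and 19.5 in knockout granule libraries. Its total values were 10.9 and 11.1 CPM in control and 10.5 and 15.1 in knockout, which overlapped. The log2 fold change in the granule fraction was 1.35 (SE 0.28, adjusted p = 0.028). For Zfp830 it was 1.07 (SE 0.26, adjusted p = 0.042). Leaving out any of the control or knockout granule or control total libraries ended both calls.

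The member median was close to 0 in that comparison. It was -0.06 (SD of the median over library pairings 0.07), against 0.08 over all genes. Knockout lay above control in both libraries in 30 members (40.4% of all genes) and below in 46 (36.6%). Without knockout total replicate 1 the median was -0.07, with 12 called higher (19.6% of all genes) and 16 lower (19.4%). With only the 4 granule libraries fitted, 17 were called higher (29.1% of all genes) and 25 lower (28.2%). The 68 tested members under 45% GC had a median of -0.28 and the 33 others 0.39. The Spearman correlation with GC content was 0.408 over the members and 0.201 over protein-coding genes. With the GC trend removed these correlations were 0.35 and 0.068.

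Whether the granule to total ratio differed between genotypes was tested as the interaction. 0 of the 101 members were called by edgeR, higher or lower in knockout, where 0.401% and 0.116% of all genes were. Unadjusted p was under 0.05 for 31 members (25.8% of all genes), and DESeq2 called 18 lower (9.05% of all genes) and 0 higher (5.32%). The median difference in log2 ratio was -0.97 (SD of the median over library combinations 0.42), against 0.09 over all genes. Without knockout total replicate 1 it was -0.47, against 0.11 over all genes, with 1 member called higher (8.31% of all genes), Zfp839, and 12 lower (10.3%). Both knockout total libraries thus gave a negative median, of a different size. With the GC trend removed it was also -0.47, against -0.15 over all genes, with 11 members called lower (10.1% of all genes) and 0 higher (3.38%).

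**Figure D5:**
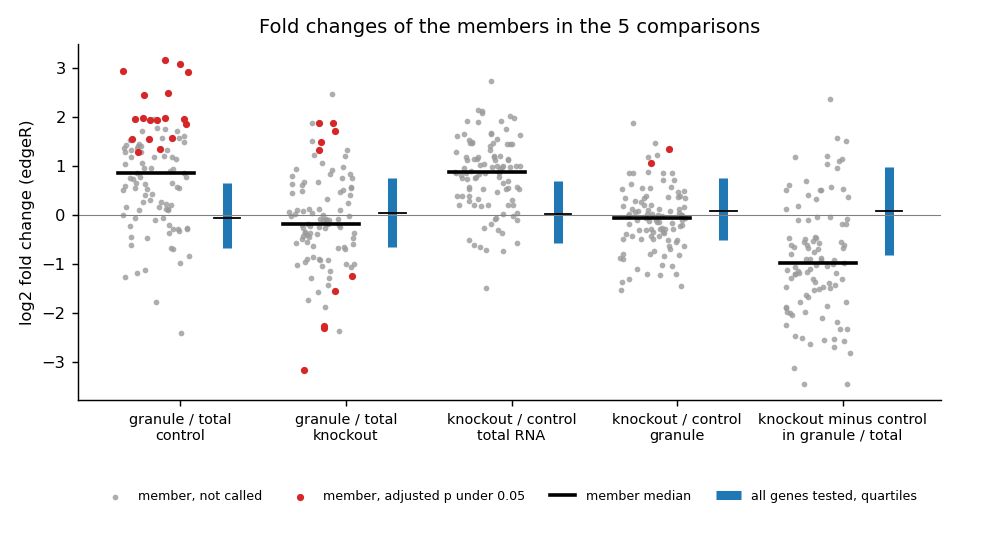
Log2 fold changes of the 101 tested members in the 5 comparisons. Points are members (red where the adjusted p was under 0.05), black bars are member medians, and the blue bar with its line gives the quartiles and median of all 18952 tested genes. The member median lies at 0.85, -0.17, 0.89, -0.06 and -0.97 from left to right.

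The numbering Zfp700 to Zfp999 follows the order of naming, and the 236 genes Zfp1 to Zfp699 give the nearest comparison. In control cells the granule fraction had 24 of their 220 tested genes called higher (10.9%, against 5.89% of all genes) and 5 called lower (2.27%, against 4.17%), with a median of 0.35. In knockout cells 10 were called higher (4.55%, against 9.17%) and 29 lower (13.2%, against 8.47%), with a median of -0.26. Knockout against control gave medians of 0.58 in total RNA (0 called) and -0.05 in the granule fraction, where 6 were called higher and 6 lower (2.73% each, against 5.79% and 3.66%). The difference between genotypes had a median of -0.72 (1 called lower). With all libraries both sets of genes had medians of the same sign in each of the 5 comparisons. Without knockout total replicate 1 the medians of Zfp1 to Zfp699 were 0.32, -0.02, 0.32, -0.06 and -0.36, so that in knockout cells they lay at -0.02 and the members at 0.37. Zfp1 to Zfp699 had a median GC content of 47.02%, against 40.25% in the members. With the GC trend removed, 45 of the 220 were called higher in control cells (20.5%, against 13.7% of all genes), beside 17.8% of the members. The medians were then 0.22, -0.27, 0.36, -0.23 and -0.55, beside 0.31, -0.19, 0.33, -0.17 and -0.47 in the members. The difference between the sets was not tested.

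The corepressor of KRAB proteins and its partners were described from a list of 20 genes. Trim28, the corepressor itself, was at 534 and 393 CPM in control total and 331 and 320 in control granule libraries. It was at 207 and 377 CPM in knockout total and 223 and 211 in knockout granule libraries. None of its 4 pairwise comparisons was called, with adjusted p from 0.24 to 0.40. Of the 20 genes 3 were called higher in the control granule fraction and 0 lower, where 5.89% and 4.17% of all genes were. These 3, Cbx5, Cbx3 and Mphosph8, encode readers of methylated histone H3. In knockout cells 4 were called higher (Chd3, Cbx1, Chd4 and Mphosph8) and 0 lower, where 9.17% and 8.47% of all genes were. Chd3 and Chd4 encode remodellers of the NuRD complex. Between knockout and control 0 were called in total RNA (0.274% of all genes higher, 0.137% lower). In the granule fraction 0 were called higher (5.79% of all genes) and 1 lower (3.66%). The latter was Dnmt1, the maintenance DNA methyltransferase (log2 fold change -0.96, adjusted p = 0.047). Without knockout total replicate 1, 14 of the 20 were called higher and 1 lower in control cells, where 21.5% and 19.1% of all genes were. In this fit knockout total RNA has 1 library, and calls of the list in its comparisons are not given. In the granule fraction 1 was called higher and 10 lower in knockout, where 19.6% and 19.4% of all genes were.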

How the data were processed

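Poly(A) RNA of 4 groups with 2 replicates each was read from a table of raw counts per Ensembl gene, 1 column per library, which the authors deposited. The submitters' processing notes name GRCm38, mm10, STAR and DESeq2 without versions or roles. The counting program, strand setting and annotation release are not given in the sources used here. Of 39017 identifiers 37693 matched GENCODE M21 (GRCm38). The rest held 0.167% to 0.221% of a library's counts.

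Counts were fitted in R 4.3.3 with edgeR 4.0.16 (robust quasi-likelihood F-test, TMM scaling, filterByExpr over the 4 groups, 4 residual degrees of freedom) as a mean per group over all 8 libraries. Printed CPM are scaled by TMM. Standard errors come from the F statistic. The procedure was checked on simulated data. Fingers were counted with a C2H2 pattern and KRAB boxes with a short amino acid pattern on translated coding sequences. GC and length trends were removed per library by lowess (span 0.3).

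The members, gene lists and tests were chosen with earlier results of these data known. Named genes are a list of members with known roles, per comparison the 3 highest and 3 lowest called members without overlap, the 5 highest per kb, Trim28 and Mettl3. Zfp808, Zfp949, Zfp995, called sets of 5 or fewer and cluster members were named after their values were seen. Replicate numbers were not used as pairs in the main fit. Alternatives were DESeq2 1.42.0 (median-of-ratios scaling and Wald test), filters at 1 count and at a mean of 5 CPM, a replicate block, fits of the compared groups alone, GC and length correction and leaving out each library. GC correction without knockout total replicate 1 and a crossed block were added after seeing the data.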

Additional observations from a re-analysis of the deposited data

Results flagged for a closer look

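In 19 of 101 tested members both granule libraries lay on one side of both total libraries in one genotype and on the opposite side in the other, as in 14.6% of all tested genes. In 15 of the 19 the granule fraction was the higher one in control cells (7.41% of all tested genes). The genes picked by the rule for named members hold 2 of the 19, Zfp935 and Zfp839. Zfp935 had a granule to total log2 ratio of 1.18 in control cells and -2.25 in knockout cells. Zfp839 had -0.46 in control cells and 0.68 in knockout cells. The interaction test of edgeR called neither (adjusted p = 0.090 and 0.14).

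Between genotypes, 28 of 101 tested members had groups on opposite sides in the 2 fractions (17.3% of all tested genes), 27 of them higher in knockout total RNA and lower in the knockout granule fraction (8.81%). Among the named members these are Zfp706, with a knockout against control log2 fold change of 0.39 in total RNA and -0.27 in the granule fraction, and Zfp934, with 2.08 and -1.03. The others are Zfp991, with 0.94 and -0.26, and Zfp935, with 1.91 and -1.52. The interaction test called none of the 4 (adjusted p from 0.090 to 0.28). In Zfp706, Zfp934, Zfp991 and Zfp935, knockout total replicate 1 was the higher of the pair. Zfp935 shares all its 50-base stretches with Gm49359, so its counts cannot be told apart from that gene model.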

How the results depend on the processing

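Counts of called members changed with the libraries fitted. The share of all genes called changed between fits as well. In control cells 5.89% of all genes were called higher with all libraries, and 13.7% with the GC trend removed. These counts alone therefore do not set the members apart from other genes. The shares of all genes are not given for the ranges that follow. With 1 library left out, the number called ran from 0 to 62 for granule against total in control cells, 0 to 58 in knockout cells, 0 to 73 for knockout against control in total RNA, 0 to 28 in the granule fraction and 0 to 68 for the difference between genotypes. The medians ran from 0.598 to 1.12, -0.674 to 0.368, 0.384 to 1.34, -0.214 to -0.0469 and -1.43 to -0.471 in the same order. With all libraries the counts were 18, 10, 0, 2 and 0 and the medians 0.85, -0.17, 0.89, -0.06 and -0.97.

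In that order of comparisons, the DESeq2 Wald test called 34, 22, 27, 5 and 18 members. Of all genes it called 9.41% higher and 3.45% lower in total RNA, and 5.32% and 9.05% for the difference. Without a filter beyond 1 count the numbers of members were 43, 23, 33, 6 and 26. With the GC trend removed, 31 were called in knockout cells (13.9% of all genes higher, 19.1% lower) and 3 in total RNA (2.74%, 1.44%). The numbers were 19 in the granule fraction (9.66%, 17.2%) and 11 for the difference (3.38%, 10.1%). With the GC trend removed and knockout total replicate 1 left out together, they were 45, 40, 15, 36 and 27. A filter at a mean of 5 CPM, which tests 43 members, left 4 in control and 4 in knockout cells. The fit of only the groups compared called 59 in control cells, 0 in knockout cells and 42 in the granule fraction. In the last of these, 29.1% of all genes were called higher and 28.2% lower. The cause of these changes was not tested, except that the stricter filter and the left-out libraries test fewer genes or samples. Where no share of all genes stands beside a count of members, it is not given here. Such a count cannot show whether members were called more often than other genes.

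Median log2 fold changes moved to 0.308 in control cells, 0.33 in total RNA, -0.168 in the granule fraction and -0.474 for the difference with the GC trend removed. They moved to 0.35, 0.258, -0.209 and -0.474 when that library was left out as well. The filter at 5 CPM gave 0.456 in control cells and 0.157 in the granule fraction, where the length correction gave -0.143 and the filter at 1 count -0.161. Median-of-ratios scaling changed no count of calls by over 1.5 times and no median by more than its spread.

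Correlations of same-numbered deviations between groups ran from -0.2537 to 0.0954. With 2 replicates per group these cannot show whether the samples were prepared in pairs. The replicate block left 4 members called in control cells, 4 in knockout cells and 0 in the other 3 comparisons, and no longer called Zfp964, Zfp935, Zfp839 and Zfp830. The crossed block called 0 members for knockout against control in total RNA.

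No named member that was called changed direction under the DESeq2, scaling, GC, block or left-out-library fits, the ones run for single members. Of those not called, Zfp703 turned to 0.391 in control cells and -0.802 in knockout cells with the GC trend removed, as did Zfp706 to -0.315 in control cells, and Zfp809 to -0.0461 and Zfp771 to -0.0148 for knockout against control in the granule fraction. With 1 library left out, the control ratio ranged from -0.156 to 0.0298 in Zfp703 and from -0.0945 to 0.465 in Zfp771. The knockout ratio ranged from -0.162 to 0.245 in Zfp703, -1.85 to 0.5 in Zfp708, -0.485 to 0.269 in Zfp768, -0.999 to 1.21 in Zfp800, -1.11 to 0.103 in Zfp809, -0.0375 to 1.01 in Zfp827 and -0.771 to 0.411 in Zfp740. Knockout against control in the granule fraction ranged from -0.0469 to 0.634 in Zfp750 and -0.144 to 0.1 in Zfp809.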
